A study of Mus musculus with 24 samples.

Results

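Prostaglandin E2 is the main prostanoid of the kidney collecting duct, and 9 genes that make it, receive its signal or inactivate it were followed here in mpkCCD cells, a mouse line of cortical collecting duct epithelium. They are the receptor genes Ptger1, Ptger2, Ptger3 and Ptger4, the cyclooxygenase genes Ptgs1 and Ptgs2, the synthase genes Ptges and Ptges2, and Hpgd, which encodes hydroxyprostaglandin dehydrogenase. All 9 were found by Ensembl identifier, through GENCODE M21, among the 54432 genes of the deposited tables. The family was chosen by role and selected on an earlier result of the same libraries, the lower Ptger1 CPM in dDAVP-treated cells at 3 and 6 h. The values of Ptger1 under dDAVP are therefore a description, given without a p-value. Where a count of calls holds Ptger1, nothing is read from its part in the count.

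The cells are labelled C57BL/6 in strain and wild type in genotype. All had been cultured on permeable filters for 6 days and then in minimal medium for 24 h. dDAVP (desmopressin, an analogue of vasopressin that acts on the V2 receptor) or its vehicle was then added on the basolateral side, and RNA was collected after 3, 6, 12 or 24 h. Each of the 8 groups, vehicle or dDAVP at 1 of these 4 times, had 3 libraries. Nothing in the labels says that the 3 came from separate cultures, so the spread between them may be technical.

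Arachidonate freed from membranes by phospholipases is turned into prostaglandin H2 by the cyclooxygenases, and the prostaglandin E synthases make prostaglandin E2 from it. The products of Ptger2 and Ptger4 couple to Gs and raise cyclic AMP, the product of Ptger3 couples mostly to Gi and lowers it, and the product of Ptger1 acts mainly through intracellular calcium. In the collecting duct prostaglandin E2 is known for opposing the effects of vasopressin on water and sodium transport when both are present.

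The libraries held 17.25 to 27.64 M estimated counts. Values for 1 gene across libraries are given in CPM (counts relative to the scaled library size), and values of different genes are compared in TPM, which also allow for transcript length. Summed markers of the principal cell, the water-transporting cell of the collecting duct, ran from 3360 to 5430 CPM in vehicle libraries and from 4420 to 6620 CPM in dDAVP libraries, with 13 of 13 markers at a mean of 1 CPM or more in every group. The summed markers of intercalated, interstitial, endothelial, leukocyte, proximal tubule and thick limb cells reached at most 72.3 CPM in any library, and no marker of these lists was at 0 in all 24 libraries. In such bulk libraries fewer cells of a type and less RNA per cell cannot be told apart. Genes of olfactory and vomeronasal receptors, 1962 in number and not known as collecting duct genes, held 0.14% to 0.933% of the counts, called the olfactory share. It averaged 0.652% in vehicle and 0.387% in dDAVP libraries at 3 h, and 0.544% against 0.203% at 6 h. At 6 h, where the share differed most between the groups, summed markers were also lower in dDAVP libraries for endothelium (8.65 to 13.3 CPM in vehicle against 2.83 to 7.6), thick limb (5.27 to 6.65 against 1.72 to 3.17) and interstitial cells (11.1 to 13.1 against 4.11 to 8.86). There 2 of 5 endothelial, 2 of 3 thick limb, 3 of 6 interstitial and 3 of 6 leukocyte markers tested fell, and in the fit with the share as a covariate none of these did. Without the covariate 38.1% of all genes tested passed at 6 h, in either direction. Among the other lists 4 of 13 principal cell markers rose and 1 fell, and 1 of 7 intercalated cell markers rose and 1 fell. Of the proximal tubule markers 0 of 4 passed. The part of these markers in the changes of the members at 6 h was not tested. Since the olfactory share moved with the groups, each effect below is also given with its log2 value as a covariate in the model, called the covariate fit. At 6 h the share was 0.458% to 0.601% in vehicle and 0.14% to 0.287% in dDAVP libraries, without overlap. The covariate fit therefore cannot fully separate the share from the treatment there. A call lost in that fit does not show that the treatment had no effect.

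Ptgs1 was the most abundant of the 9 genes in TPM, with a median of 31.0 over the 24 libraries, followed by Ptges2 at 22.0. Ptger1 had a median of 3.73 TPM, Ptgs2 of 2.11, Ptger4 of 1.75 and Ptges of 1.03. Ptger2 (0.0987), Ptger3 (0.0809) and Hpgd (0.0316) lay lowest. Ptgs1 was above Ptges2, Ptges2 above Ptger1, and Ptges above Ptger2 in 24 of 24 libraries each. The neighbours least separated in this order were Ptger1 and Ptgs2, with Ptger1 higher in 17 of 24 libraries, and Ptger2 and Ptger3, with Ptger2 higher in 18 of 24. Constitutive cyclooxygenase and the membrane synthase encoded by Ptges2 thus had higher transcript levels than the inducible enzymes Ptgs2 and Ptges in these cells. Levels of single genes by library are in the plot of CPM by time.

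**Figure D1:**
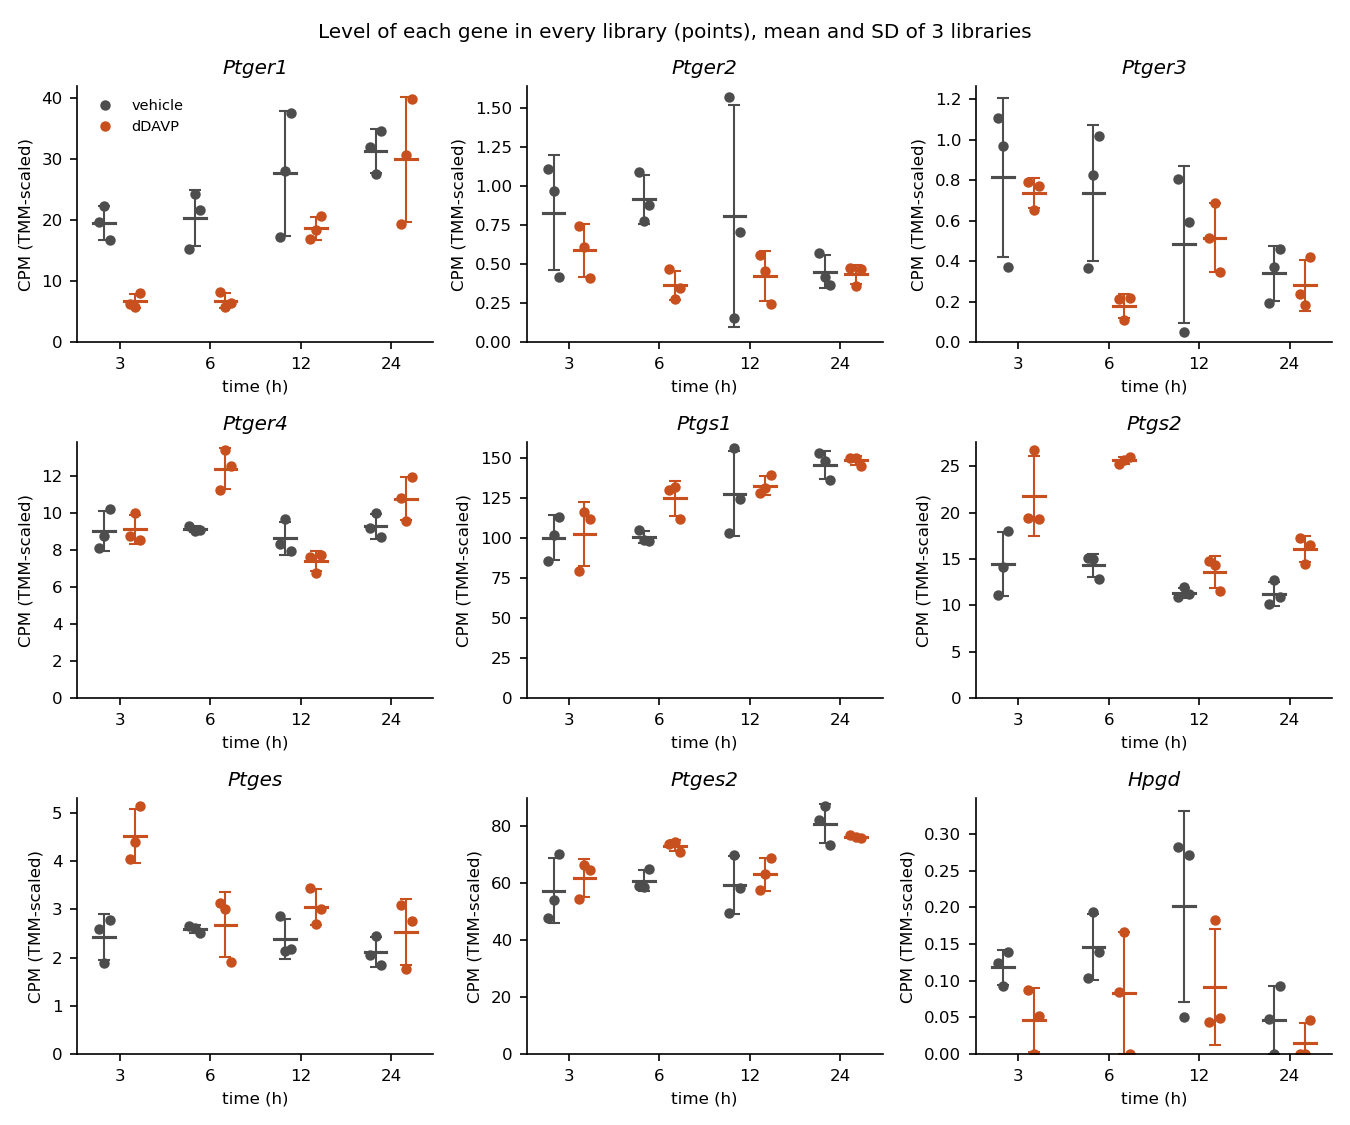
Level of each of the 9 genes in CPM (vertical axis, from 0) at each time in hours, with 1 point per library, a bar at the mean of 3 libraries and a line of 1 SD either way (cut off at 0 for Hpgd). The dDAVP points of Ptger1 lie below the vehicle points at 3 and 6 h and among them at 24 h, while those of Ptgs2 lie above the vehicle points at 3, 6 and 24 h.

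Ptger1 (ENSMUSG00000019464, GRCm38 chromosome 8, 83666678 to 83672753, plus strand) encodes the EP1 receptor. At 3 h the vehicle libraries had 19.6, 22.3 and 16.7 CPM, and the dDAVP libraries 6.28, 5.78 and 8.07 CPM. At 6 h the vehicle libraries had 15.3, 24.2 and 21.6 CPM, and the dDAVP libraries 8.22, 5.77 and 6.39 CPM. Every dDAVP library lay below every vehicle library at both times, as in 8.06% and 33.2% of all genes tested. At 12 h vehicle had 17.2, 28.1 and 37.6 CPM and dDAVP 16.9, 18.4 and 20.6 CPM, and at 24 h vehicle had 31.9, 27.5 and 34.6 CPM and dDAVP 19.4, 30.6 and 39.9 CPM. The groups overlapped at both later times. The log2 change under dDAVP was -1.55 ± 0.251 (SE) at 3 h and -1.58 ± 0.251 at 6 h, 0.342 and 0.334 of the vehicle level. It was -0.57 ± 0.236 at 12 h (95% interval -1.06 to -0.08) and -0.06 ± 0.233 at 24 h (-0.54 to 0.42). In the covariate fit the changes were -1.57, -1.62, -0.57 and -0.07 in the order of the times. The part of the olfactory share in the Ptger1 values, beyond this fit, was not tested.

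The makeup of the receptor transcripts differed accordingly. Ptger1 made up 66.6% ± 6.48 (SD, n = 3) of the summed TPM of the 4 receptor genes in vehicle cells at 3 h and 30.9% ± 5.24 in dDAVP cells, and Ptger4 made up 28.2% ± 8.12 and 59.7% ± 4.84. At 6 h Ptger1 held 65.7% ± 12.9 against 26.4% ± 4.97, and Ptger4 28.7% ± 11.2 against 70.0% ± 5.81. Ptger4, the Gs-coupled receptor, was thus the largest receptor transcript in every dDAVP library of 3 and 6 h, and Ptger1 in every vehicle library of those times. Ptger1 held 68.9% and 69.8% at 12 h and 72.6% and 69.2% at 24 h in vehicle and dDAVP cells. These shares follow from the Ptger1 values above and are no separate evidence of them. They are taken per gene, and not every annotated Ptger1 transcript is protein-coding. The Ptger1 share is therefore not necessarily that of receptor-coding transcript alone.

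The annotation gives Ptger1 3 transcripts, a protein-coding one of 4694 bases, one with a retained intron of 3474 bases and a shortest one of 884 bases. The sources used here do not state that strand was used in the counting, and without strand reads from genes on opposite strands of a stretch cannot be told apart. The part of read assignment in the Ptger1 values was not tested.

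**Figure D2:**
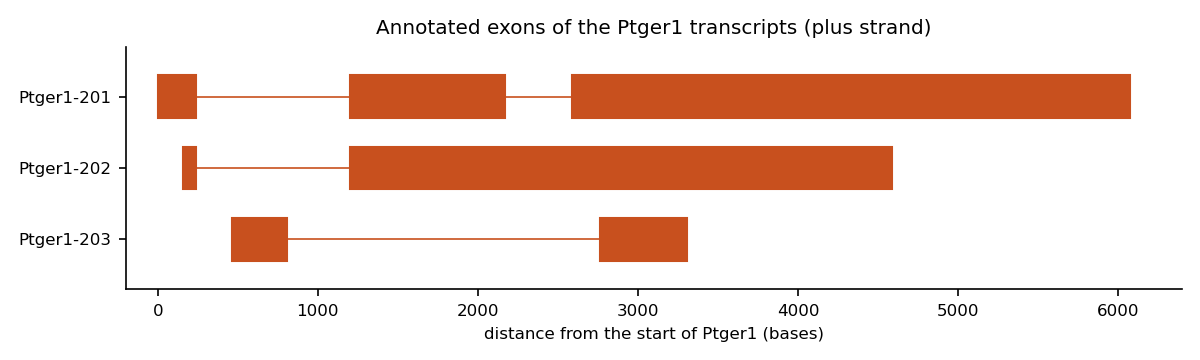
Annotated exons (boxes) and introns (lines) of the Ptger1 transcripts, 1 line each, against the distance in bases from the start of Ptger1. The protein-coding transcript (top line) is the longest of the 3, at 4694 bases.

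The deposited counts and TPM together also give the mean effective length of the transcripts to which the counts of a gene were assigned. The ratio of count to TPM was put on the scale of bases with 844 genes of a single transcript, for which the implied length ran from 0.87 to 1.05 of the annotated one (5th to 95th percentile). For Ptger1 the implied length was 3027 ± 418 bases in vehicle and 4759 ± 193 in dDAVP cells at 3 h, and 3221 ± 1132 against 4862 ± 6 at 6 h. The 6 dDAVP libraries of these times lay between 4537 and 4871 bases, near the length of the protein-coding transcript, and the 6 vehicle libraries between 2399 and 4512 bases. If the deposited counts were not scaled by transcript length, which the sources used here do not state, a shorter implied length goes with a larger part of the counts assigned to the shorter Ptger1 transcripts. At 12 h the means were 3866 and 3192 bases and at 24 h 3872 and 3631 bases, with dDAVP no longer the longer of the pair. On the TPM scale, which divides by that length, Ptger1 averaged 5.33 ± 1.82 TPM in vehicle and 0.891 ± 0.158 TPM in dDAVP cells at 3 h, and 4.88 ± 2.42 against 0.67 ± 0.161 TPM at 6 h. The corresponding difference in log2(TPM + 0.1) was -2.40 at 3 h and -2.58 at 6 h.

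**Figure D3:**
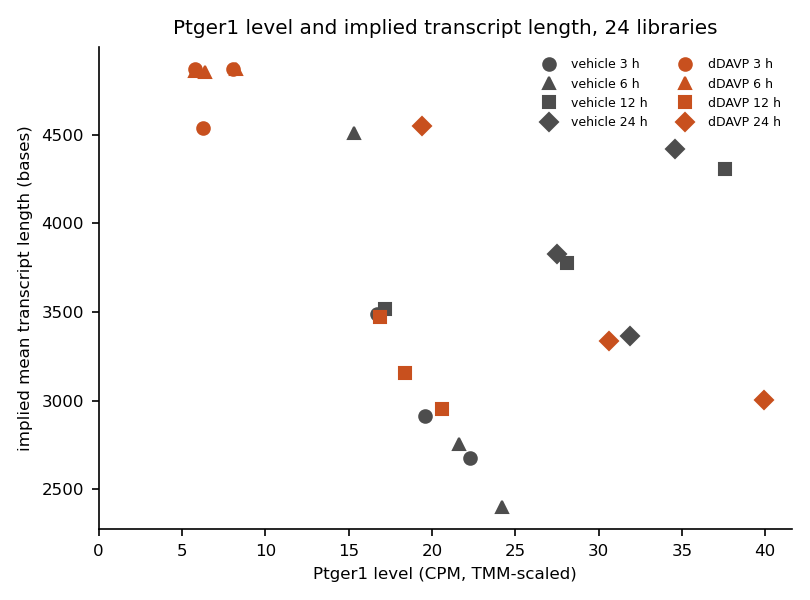
Ptger1 level in CPM (horizontal axis, from 0) against the implied mean transcript length in bases, 1 point per library, with treatment by colour and time by marker. The 6 dDAVP libraries of 3 and 6 h lie at the upper left, at 4537 to 4871 bases, and the lowest length, 2399 bases, belongs to a vehicle library of 6 h.

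Ptger4 (ENSMUSG00000039942, chromosome 15, 5206661 to 5244187, minus strand) encodes the EP4 receptor. Vehicle libraries had 9.3, 9.03 and 9.06 CPM at 6 h and dDAVP libraries 11.2, 13.4 and 12.5 CPM, with every dDAVP library above every vehicle library, as in 29.8% of all genes tested. At 12 h the order was the opposite, with 8.29, 9.63 and 7.91 CPM in vehicle and 7.63, 6.77 and 7.74 CPM in dDAVP libraries, an order that 2.24% of all genes tested showed. At 3 h and 24 h the groups overlapped. By edgeR's quasi-likelihood test, with p adjusted by the Benjamini-Hochberg method over all 29743 genes tested, Ptger4 rose at 6 h (log2 0.43 ± 0.139, adjusted p = 0.0252). The call was lost in each of 6 fits that left out 1 library of these groups (adjusted p from 0.0684 to 0.207). It was also lost in the covariate fit (0.26 ± 0.135, adjusted p = 0.849), and on log2(TPM + 1) the difference was -0.06. At 12 h the change of -0.22 ± 0.141 did not pass (adjusted p = 0.917), and neither did those at 3 h (0.02) and 24 h (0.21). Of the exon bases of Ptger4, 15.3% lie opposite the pseudogene Gm15937, which had at most 16 counts in a library. Another 1.2% lie opposite exons of Ttc33, which also rose at 6 h (0.40, adjusted p = 0.0248) and did not pass with the covariate (0.04).

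Ptger2 (ENSMUSG00000037759, chromosome 14), the gene of the Gs-coupled EP2 receptor, and Ptger3 (ENSMUSG00000040016, chromosome 3), that of the Gi-coupled EP3 receptor, were near the limit of detection. Ptger2 had 3 to 39 counts in a library and Ptger3 1 to 27. At 6 h Ptger3 had 0.364, 0.825 and 1.02 CPM in vehicle and 0.212, 0.111 and 0.217 CPM in dDAVP libraries, and Ptger2 1.09, 0.777 and 0.879 against 0.466, 0.277 and 0.348 CPM. Both sets of dDAVP libraries lay below the vehicle libraries, as in 33.2% of all genes tested. Ptger3 fell at 6 h (log2 -1.98 ± 0.637, adjusted p = 0.0255), and Ptger2 did not pass the test there (-1.30 ± 0.54, adjusted p = 0.0568) but did in the mean of the 4 times (-0.70 ± 0.269, adjusted p = 0.0483). Leaving out 1 library lost the Ptger3 call in 5 of 6 fits (adjusted p from 0.0363 to 0.138), all but that without dDAVP replicate 3, and the Ptger2 call in the mean in 21 of 24 (0.00488 to 0.173). In the covariate fit neither passed, with -0.48 (adjusted p = 0.975) for Ptger3 at 6 h and 0.02 (adjusted p = 1) for the mean of Ptger2. The olfactory share was lower in dDAVP than in vehicle cells at 6 h too, and its part in these 2 changes, beyond those 2 values, was not tested. The predicted genes Gm49364 and Gm17173 lie opposite 2.8% and 4.7% of the exon bases of Ptger2, and neither passed at 6 h (-2.08, adjusted p = 0.0852, and -1.79, adjusted p = 0.0832).

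Ptgs2 (ENSMUSG00000032487, chromosome 1, 150100031 to 150108227, plus strand) encodes the inducible cyclooxygenase. Its promoter is printed because, among the members, it was the synthesis gene called in both fits in the mean of the 4 times. The stretch chr1:150099781-150100060 on the plus strand of GRCm38.p6, from RefSeq, holds the 250 bases before the annotated start and the first 30 bases after it. Its capitals mark a palindrome bound by C/EBP factors and, further on, an overlapping cyclic AMP response element half-site and E-box: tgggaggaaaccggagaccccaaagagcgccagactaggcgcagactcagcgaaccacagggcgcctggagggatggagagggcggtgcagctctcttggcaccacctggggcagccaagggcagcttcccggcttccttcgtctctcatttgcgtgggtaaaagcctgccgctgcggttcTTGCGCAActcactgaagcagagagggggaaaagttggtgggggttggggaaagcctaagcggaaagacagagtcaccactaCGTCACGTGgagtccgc. The 4 motifs were chosen with this sequence in view and searched on both strands in windows of 300 bases, 250 before the start and 50 after it. The palindrome TTGCGCAA lies at -69 to -62 and occurs in 0.183% of the 32851 RefSeq windows. The half-site TGACG, here as its complement CGTCA, lies at 14 to 18 and occurs in 20.8% of windows, and the E-box CACGTG, which shares 2 of its bases, lies at 17 to 22 and occurs in 7.15%. The full response element TGACGTCA, found in 1.79% of windows, was in none of the 8 members with a window in that table. Of those 8, the half-site and the palindrome were found in Ptgs2 alone and the E-box also in Ptges2, at -77 to -72. The part of these motifs in the changes of Ptgs2 under dDAVP was not tested.

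Ptgs2 transcripts were higher with dDAVP. At 3 h vehicle libraries had 11.1, 14.2 and 18.0 CPM and dDAVP libraries 19.4, 26.8 and 19.3 CPM, and at 6 h vehicle had 15.1, 15.0 and 12.9 CPM and dDAVP 25.3, 25.7 and 26.0 CPM. At 24 h vehicle had 10.2, 12.7 and 10.9 CPM and dDAVP 17.3, 14.5 and 16.5 CPM. All dDAVP libraries exceeded all vehicle libraries at these 3 times, as 4.04%, 29.8% and 4.25% of all genes tested did. At 12 h, with 10.9, 12.0 and 11.2 against 14.8, 14.4 and 11.6 CPM, the groups overlapped. Ptgs2 rose at 6 h by a log2 of 0.84 ± 0.155 (adjusted p = 0.00336) and in the mean of the 4 times by 0.55 ± 0.0781 (adjusted p = 5.86e-05). The changes of 0.60 ± 0.155 at 3 h (adjusted p = 0.0983), 0.26 ± 0.158 at 12 h (adjusted p = 0.917) and 0.52 ± 0.158 at 24 h (adjusted p = 0.963) did not pass. In the covariate fit the mean remained past the threshold (0.48 ± 0.0843, adjusted p = 0.00119), and the change at 6 h did not pass (0.66 ± 0.173, adjusted p = 0.142). The call at 6 h was also lost without dDAVP replicate 2 (adjusted p = 0.0658).

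**Figure D4:**
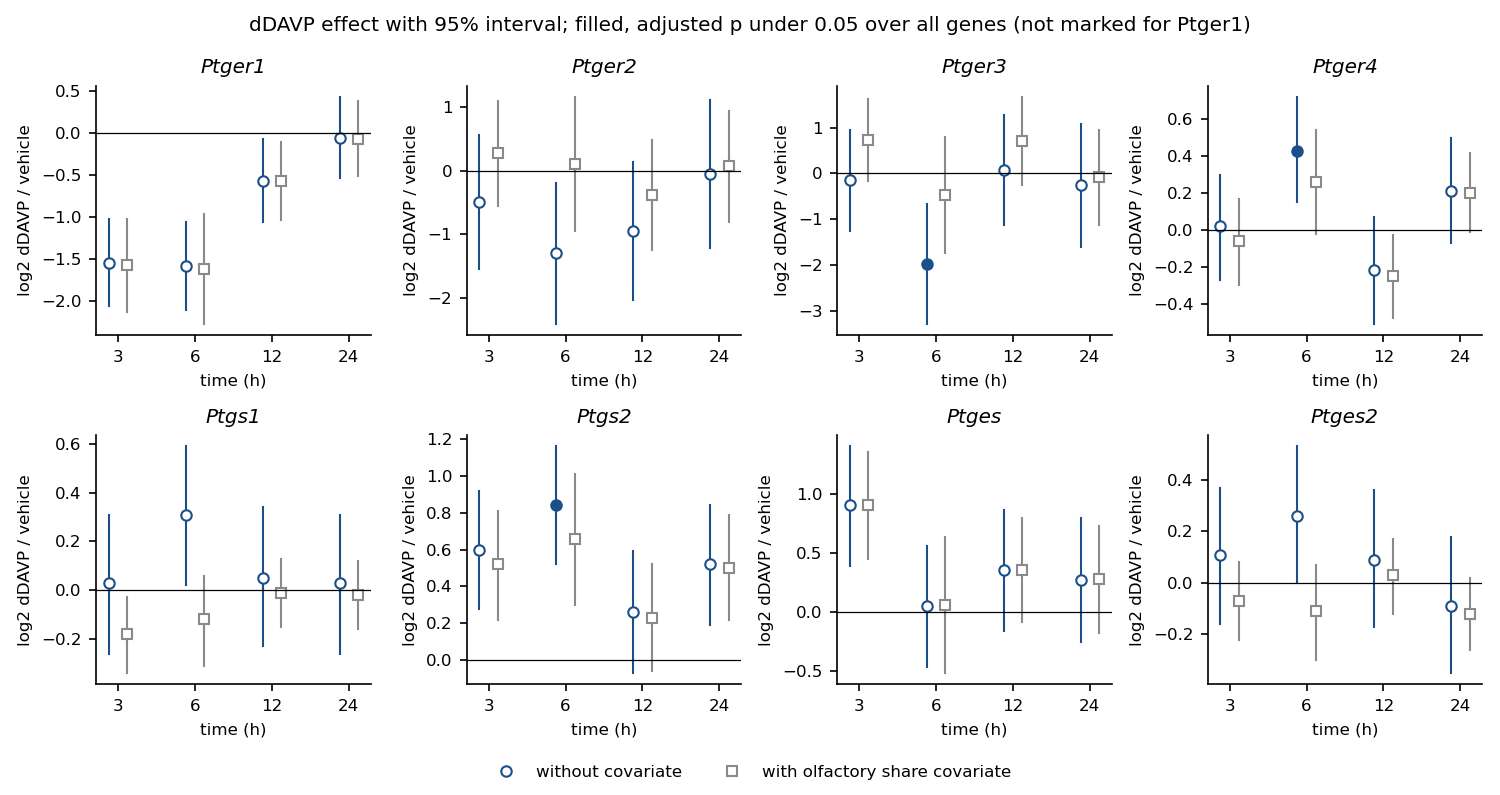
Log2 change under dDAVP (vertical axis) with its 95% interval at each time in hours for the 8 genes tested, without (circles) and with (squares) the olfactory share as a covariate, filled where the adjusted p was under 0.05. Ptger1, whose values are a description, is drawn open throughout, and Ptgs2, Ptger3 and Ptger4 are filled at 6 h only without the covariate.

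Ptgs2 was also read relative to the other cyclooxygenase and in TPM. Ptgs2 held 7.25% ± 0.56 of the summed TPM of Ptgs1 and Ptgs2 in vehicle and 10.7% ± 1.51 in dDAVP cells at 3 h, and 7.78% ± 1.25 against 10.3% ± 0.703 at 6 h. At 24 h it held 3.93% ± 0.524 against 5.69% ± 0.521. Ptgs1 therefore made up most of the cyclooxygenase transcript in every group. The level of Ptgs2 was 2.38 ± 0.618 TPM in vehicle and 2.71 ± 0.0764 TPM in dDAVP cells at 6 h, and its change in log2(TPM + 1) was 0.15 there (limma, adjusted p = 0.371) and 0.16 in the mean of the 4 times (adjusted p = 0.078). In TPM the predicted gene Gm24245 took 37.4% to 51.7% of each library, and the TPM columns were not rescaled for it. At 6 h it took 43.5%, 43.2% and 46.9% in vehicle and 49%, 51.7% and 51.4% in dDAVP libraries, which leaves less of the fixed total for every other gene in dDAVP libraries. Its part in the TPM changes given here was not tested.

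Ptgs1 (ENSMUSG00000047250, chromosome 2, 36230426 to 36252272) encodes the constitutive cyclooxygenase. It had 85.6, 102.0 and 113.0 CPM in vehicle and 79.5, 116.0 and 112.0 CPM in dDAVP libraries at 3 h, and stood at 146.0 ± 9.08 and 148.0 ± 2.95 CPM at 24 h. Its changes under dDAVP did not pass the test at any time, the largest being 0.31 ± 0.138 at 6 h (adjusted p = 0.0739). The 24 h interval of -0.26 to 0.31 leaves room for a change of up to about that size in either direction. With the covariate the change at 6 h was -0.12 and on log2(TPM + 1) it was -0.22. In the mean of the 4 times the change was positive and did not pass on counts, and on log2(TPM + 1) it was -0.19 and passed (limma, adjusted p = 0.0182). The uncharacterized gene Gm43621 lies opposite 3.8% of the exon bases of Ptgs1 and fell at 6 h (-0.96, adjusted p = 0.0398), but did not pass with the covariate (-0.07).

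Ptges (ENSMUSG00000050737, chromosome 2, 30889471 to 30929863) encodes the inducible microsomal synthase that works with Ptgs2. At 3 h vehicle libraries had 2.6, 1.89 and 2.78 CPM and dDAVP libraries 4.04, 4.39 and 5.14 CPM, with no overlap, as in 4.04% of all genes tested in that direction. The log2 change of 0.90 ± 0.246 did not pass in edgeR (adjusted p = 0.144 without and 0.0505 with the covariate), and DESeq2 gave 1.02 with an adjusted p of 0.0177. At 6, 12 and 24 h the groups overlapped, with changes of 0.05, 0.35 and 0.27. In the mean of the 4 times Ptges rose by 0.39 ± 0.125 (adjusted p = 0.0278), a call lost in the covariate fit, where the value was 0.40 ± 0.133 (adjusted p = 0.266). It was also lost in 9 of 24 fits that left out 1 library (adjusted p up to 0.0808). The pseudogene Gm13400 within the span of Ptges shares no exon base with it. The counts of Ptges itself ran from 29 to 101 in a library, and the implied transcript length of Ptges from 1154 to 3722 bases.

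Ptges2 (ENSMUSG00000026820, chromosome 2, 32395896 to 32405772) encodes a membrane-associated synthase. It had 60.7 ± 3.59 CPM in vehicle and 72.9 ± 1.85 CPM in dDAVP cells at 6 h, without overlap, as in 29.8% of all genes tested, and its change of 0.26 ± 0.128 did not pass (adjusted p = 0.0934). On TPM the sign was the opposite, with 22.5 ± 0.762 against 19.3 ± 2.43 TPM and a change in log2(TPM + 1) of -0.22 that passed (limma, adjusted p = 0.0489), as did that of -0.13 in the mean of the 4 times (adjusted p = 0.0226). The share of Gm24245 in TPM, given above, differed between these groups too. Ptgs1 and Ptges2, the 2 abundant genes, thus took a direction under dDAVP that depended on the scale used.

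Hpgd (ENSMUSG00000031613, chromosome 8, 56294585 to 56321043) encodes the dehydrogenase that inactivates prostaglandin E2. It had 0 to 7 counts in a library and 0 in 5 of 24 libraries, and a count of 0 allows up to 3. The 3 vehicle libraries of 3 h had 3, 2 and 3 counts and the dDAVP libraries 2, 0 and 1. It did not pass the filter on low counts and was not tested, so 8 of the 9 genes were. The gene model Gm45540 within its span shares no exon base with it.

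Counted over the 8 genes tested, 1 passed at 3 h (Ptger1, lower), where 0.484% of all genes tested passed and 0.0168% were lower. At 6 h 4 passed, Ptger4 and Ptgs2 higher and Ptger1 and Ptger3 lower, against 38.1% of all genes, so this share is close to the background. In the mean of the 4 times 4 passed, Ptgs2 and Ptges higher and Ptger1 and Ptger2 lower, against 33.1% of all genes. The median log2 change was 0.02 over the 8 genes and -0.14 over all genes at 3 h, and 0.16 against -0.39 at 6 h. None passed at 12 h or 24 h, where 0.0773% and 0.0841% of all genes did. With Ptger1 set aside, none had an unadjusted p under 0.05 at 12 h and 1 did at 24 h (Ptgs2), and DESeq2 also called none. In the covariate fit none but Ptger1 passed at 3 h or at 6 h, and none but Ptger1 and Ptgs2 in the mean. Of all genes 0.726%, 0.336% and 1.22% did. No member passed edgeR's test of a change of the dDAVP effect with time, which 0.343% of all genes did. Of the members other than Ptger1, only Ptger4 had an unadjusted p under 0.05 in that test, and DESeq2 called none of them. Since the Ptger1 calls come from the contrasts that brought the family together, nothing is read from counts that hold them.

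Levels also differed between the vehicle groups of 3 h and 24 h, without dDAVP. Ptgs1 rose to 146.0 ± 9.08 CPM from the 3 h values above (log2 0.54 ± 0.138, adjusted p = 0.0101), Ptges2 from 57.3 ± 11.5 to 80.7 ± 6.91 CPM (0.49 ± 0.128, adjusted p = 0.0101) and Ptger1 from 19.6 ± 2.78 to 31.3 ± 3.57 CPM (0.68 ± 0.235, adjusted p = 0.03). These 3 of 8 stand against 38% of all genes tested. The vehicle values of Ptger1 at 3 h were also part of the contrast that selected the family, so nothing is read from its call here. Leaving out 1 of the 6 libraries lost the call of Ptgs1 in 2 fits, that of Ptges2 in 3 and that of Ptger1 in 5 (adjusted p up to 0.0905, 0.0969 and 0.119), each time including the fit without vehicle replicate 1 of 3 h. None of the 3 passed in the covariate fit, where 0.693% of all genes did and 2 members had an unadjusted p under 0.05, and the values there were 0.13 for Ptgs1, 0.13 for Ptges2 and 0.63 for Ptger1. The olfactory share averaged 0.652% in vehicle at 3 h and 0.233% at 24 h. It ran from 0.405% to 0.933% and from 0.187% to 0.311% in these groups, without overlap. The covariate fit therefore cannot fully separate the share from time here, and a call lost in it does not show that levels stayed the same. Ptgs2 went the other way, from 14.4 ± 3.45 to 11.3 ± 1.3 CPM (-0.35, adjusted p = 0.0714), and on log2(TPM + 1) it fell by 0.58 (limma, adjusted p = 0.0137). The Ptger1 value changed sign on TPM, to -0.12.

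Ptger1 was also compared with 10945 genes of at least 5 CPM in a group by Pearson r of log2 CPM over the 24 libraries. Genes named only as clones, predicted genes or ribosomal pseudogenes were left out of this ranking. The 5 with the highest r were Scnn1g (0.91), the gene of an epithelial sodium channel subunit, Veph1 (0.85), Smarca2 (0.82), a chromatin remodelling ATPase, Pdxk (0.81), the pyridoxal kinase, and Npr3 (0.80), the clearance receptor for natriuretic peptides. The 5 with the lowest r were Klhl2 (-0.83), Dock5 (-0.83), Ptgs2 (-0.83), Slc25a35 (-0.82) and the nuclear receptor gene Nr4a2 (-0.81). Ptgs2 thus had a place among the 3 lowest of the 10945 genes ranked. Ptger1 was selected for its lower CPM under dDAVP at 3 and 6 h, so genes higher under dDAVP then tend to a low r. Ptgs2, with log2 changes of 0.60 and 0.84 at those times, was such a gene. Its rank is therefore no separate evidence of a relation between Ptgs2 and Ptger1. Under dDAVP Scnn1g changed by -0.96, -0.71, -0.56 and -0.34 and Nr4a2 by 2.15, 1.26, 0.71 and 0.73 at 3, 6, 12 and 24 h. The r values describe libraries that share 8 groups and a scaling, and the same libraries set the Ptger1 pattern.

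**Figure D5:**
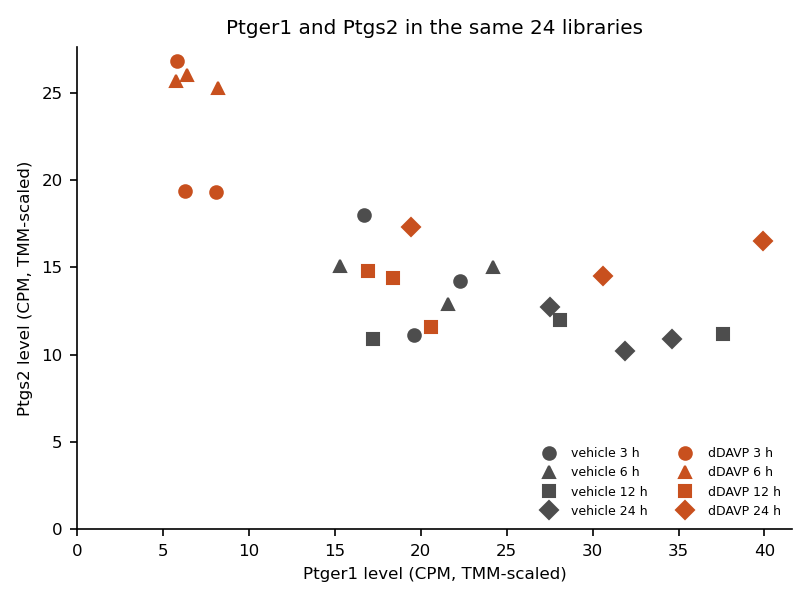
Ptgs2 against Ptger1, both in CPM on axes from 0, in each of the 24 libraries, with treatment by colour and time by marker. The 6 dDAVP libraries of 3 and 6 h have the lowest Ptger1 (5.77 to 8.22 CPM) and the highest Ptgs2 (19.3 to 26.8 CPM), and the dDAVP libraries of 24 h have Ptgs2 of 14.5 to 17.3 CPM at any Ptger1 level.

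Around the 9 genes, 4 lists of the prostanoid pathway were counted. Of 22 genes of arachidonate release 18 were tested, and none passed in edgeR at 3, 12 or 24 h, where 3, 1 and 3 had an unadjusted p under 0.05. At 6 h 3 rose and 1 fell, 4 of 18 where 38.1% of all genes passed: Pla2g4a, the cytosolic phospholipase A2 (0.51 ± 0.114, adjusted p = 0.0133), Pla2g6 (0.42) and Pla2g12a (0.51) higher, and the secreted phospholipase gene Pla2g10 (-1.72) lower. The median of the list was -0.36 at 6 h, beside -0.39 over all genes. In the covariate fit none passed at 6 h, and 1 had an unadjusted p under 0.05. Pla2g4a rose in the mean of the 4 times in both fits (0.32 ± 0.057, adjusted p = 0.00113, and 0.20 ± 0.0462, adjusted p = 0.0241, with the covariate), going from 47.0 ± 2.31 to 67.1 ± 4.38 CPM at 6 h.

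Of 11 genes of other prostanoid synthesis 9 were tested. At 3 h 1 passed, the carbonyl reductase gene Cbr3. It rose from 3.07 ± 0.517 to 9.45 ± 1.04 CPM at 3 h (1.62 ± 0.193, adjusted p = 1.2e-05) and from 3.03 ± 0.351 to 7.23 ± 0.684 CPM at 6 h (1.25 ± 0.194, adjusted p = 0.0005), and it passed in the covariate fit at both times (1.55 and 1.10). Its effect changed with time (adjusted p = 0.03 without and 0.0103 with the covariate), with 4.32 ± 0.525 against 4.77 ± 1.22 CPM at 12 h. At 6 h 5 genes of the list rose and 2 fell, 7 of 9 where 38.1% of all genes passed, among them Cbr1 (0.68), the thromboxane synthase gene Tbxas1 (-1.12) and Hpgds (-0.46), the prostaglandin D synthase of blood-forming cells. With the covariate Cbr3 was the only gene of the list called at 6 h, and Cbr3 and Cbr1 (0.20, adjusted p = 0.0211) were those called in the mean. The median of the list was 0.19 at 3 h and 0.4 at 6 h, beside -0.14 and -0.39 over all genes. With the covariate it was 0.06 and -0.02, beside 0.05 and 0.04 over all genes.

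Of 5 genes of other prostanoid receptors 4 were tested, and 1 passed at 6 h, where 38.1% of all genes did, Ptgfr, the receptor gene for prostaglandin F2 alpha (-1.14, adjusted p = 0.0431). All 11 genes of prostaglandin transport and inactivation were tested, and 3 rose at 6 h, a share below the same 38.1%: the organic anion transporter gene Slco4a1 (0.40), Abcc4 (0.30), which encodes an exporter of prostaglandins, and the prostaglandin reductase gene Ptgr2 (0.33). In these 2 lists none passed at 3, 12 or 24 h and none passed at 6 h with the covariate. At an unadjusted edgeR p under 0.05 the receptor list had 1, 0 and 0 genes at 3, 12 and 24 h and 0 at 6 h with the covariate, and the transport list had 2, 0 and 1 genes and 0 with the covariate. Apart from Ptger1, Cbr3 was the 1 gene of these 5 lists called at single times in both fits.

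In the mean of the 4 times, where 33.1% of all genes passed, the 4 lists had 7 of 18, 4 of 9, 0 of 4 and 5 of 11 genes called in the order above, and in the list of 4 receptors 1 had an unadjusted edgeR p under 0.05. Beside Pla2g4a, Cbr3 and Cbr1 these included Pla2g10 (-0.84), Pla2g3 (-0.72) and Pla2g6 (0.21), Tbxas1 (-0.63) and Ptges3 (0.26), the gene of the cytosolic prostaglandin E synthase, and Slco4a1 (0.21), Abcc4 (0.16), Ptgr2 (0.19) and the transporter gene Slc22a8 (-0.61). Pla2g4a, Cbr3 and Cbr1 were those called with the covariate too. Between vehicle at 24 h and at 3 h the lists had 4 of 18, 6 of 9, 1 of 4 and 6 of 11 genes called, against 38% of all genes. Higher at 24 h were Faah (0.50), Pla2g15 (0.44), Pla2g6 (0.33), the prostaglandin D synthase genes Ptgds (1.07) and Hpgds (0.70), Cbr3 (0.60), Cbr2 (0.47), Slco3a1 (0.67) and Ptgr2 (0.56). Lower were Pla2g4d (-1.59), Ptgfr (-1.63), Slc22a8 (-1.26) and Slco2b1 (-1.77). With the covariate 1 gene of the 4 lists was called between the vehicle groups, Akr1b3 (-0.41, adjusted p = 0.0114).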

How the data were processed

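RNA of 24 mpkCCD libraries was measured by sequencing. Per the labels' protocols, cells were lysed in Trizol, the SMART-Seq HT kit made cDNA from the total RNA, and Nextera chemistry turned it into libraries. The authors deposited estimated counts per Ensembl gene, not normalized, and TPM scaled to a fixed total per library; the submitters' processing notes name Salmon 0.14.10 and GRCm38.p6. Whether strand was used, and how transcripts were summed, is not given in the sources used here. Each column matched 1 sample, and 0 columns remained.

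Estimated counts were rounded and fitted with edgeR 4.0.16 (limma 3.58.1, R 4.3.3) over all 24 libraries: TMM scaling, filterByExpr (29743 of 54432 genes), 1 mean per group, quasi-likelihood F tests, Benjamini-Hochberg adjustment over all genes tested, and a threshold of 0.05. CPM use TMM library sizes. TPM were tested with limma on log2(TPM + 1) or log2(TPM + 0.1). The olfactory share covariate is the log2 of the percent of a library's counts held by 1962 genes of olfactory or vomeronasal receptors. The fit was tested on simulated data. Named genes were the 9 members, genes overlapping them, up to 4 called genes of each other list with the smallest p, and the 5 highest and 5 lowest r with Ptger1. 1 gene under this rule is not reported here. The members, lists, motifs and the covariate were chosen with earlier results of these data known.

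Depth was 17.25 to 27.64 M counts, with 36713 to 46313 genes detected; intervals for genes with few counts are wide. Between replicates the chi-square per gene was 2.51 to 35.8, so all 24 were counted as separate libraries. Alternatives were RLE scaling, DESeq2 1.42.0, no filter, a replicate block, a 5 CPM filter (13123 genes), the 2 TPM fits, only the libraries compared, a threshold of 0.01, the covariate, and leaving out each library. Replicate numbers did not pair the libraries. Motifs were searched in 32851 RefSeq windows (GRCm38.p6). Plots used matplotlib 3.10.9 under Python 3.11.15.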

Additional observations from a re-analysis of the deposited data

Results flagged for a closer look

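Ptger4 stood out because its dDAVP and vehicle libraries separated in opposite directions at 2 times. At 6 h all 3 dDAVP libraries lay above all 3 vehicle libraries (log2 0.43, called without and not with the olfactory share covariate), and at 12 h all 3 lay below (log2 -0.22, not called). The change of the Ptger4 effect over the 4 times had an unadjusted p of 0.0194 and an adjusted p of 0.544 in edgeR's quasi-likelihood test, so the difference between the times did not pass. Such separations occurred in 29.8% of all genes tested at 6 h (higher) and in 2.24% at 12 h (lower).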

How the results depend on the processing

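Outside of leaving out libraries, 405 of 513 values kept their direction and their side of the threshold, 31 lost a call, 12 gained one and 65 changed sign; leaving out 1 library gave 540, 52, 9 and 23 of 624. The Ptger1 values at 3 h and 6 h, which are a description, lay below 0 under every alternative run. The counts of members below include Ptger1 where it was called, and nothing is read from its part in them. The cause of the changes below was not tested, beyond the smaller set of genes tested with the 5 CPM filter and the smaller number of libraries where some were left out. Depth limits Ptger2, Ptger3, Ptges and Hpgd, with at most 39, 27, 101 and 7 counts in a library.

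Members called at 3 h were 1, and 2 with DESeq2 (Ptges added); leaving out 1 library gave 1 to 2, the higher without vehicle replicate 3, where Ptgs2 passed (0.74, adjusted p = 0.0301). At 6 h they were 4, and 2 with the 5 CPM filter, 1 with the covariate, 2 on log2(TPM + 1) and 2 at a threshold of 0.01; leaving out 1 library gave 1 to 3, the lowest without dDAVP replicate 2, where Ptgs2 missed (adjusted p = 0.0658); Ptger4 missed in 6 of 6 such fits and Ptger3 in 5 of 6, all but that without dDAVP replicate 3. In the mean they were 4, and 2 with the 5 CPM filter, 2 with the covariate and 2 at 0.01, with a range of 2 to 5. Between the vehicle groups they were 3, and 0 with the covariate and 0 at 0.01, with a range of 0 to 3, 0 without replicate 1 of either group and 1 without replicate 2 of 24 h. For time dependence they were 0, and 1 (Ptger1) without a filter, with the 5 CPM filter, with the replicate block and with DESeq2, with a range of 0 to 1. The replicate block gave 1, 5, 0, 0 and 4 calls at 3, 6, 12 and 24 h and in the mean, adding Ptger2 at 6 h (adjusted p = 0.0317). Same-numbered vehicle and dDAVP libraries deviated together with correlations of -0.19 to 0.45, over 0.1 in 4 of 12 pairs, and 8 of 24 libraries correlated best with their own number.

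With the covariate the sign changed for Ptger2 at 3, 6 and 24 h, in the mean and in vehicle (0.28, 0.11, 0.07, 0.02 and 0.63), Ptger3 at 3 h, in the mean and in vehicle (0.72, 0.21 and 0.38), Ptger4 at 3 h and in vehicle (-0.06 and -0.12), Ptgs1 at 3, 6, 12 and 24 h and in the mean (-0.18, -0.12, -0.01, -0.02 and -0.08) and Ptges2 at 3 h, 6 h and in the mean (-0.07, -0.11 and -0.07). With the 5 CPM filter it changed for Ptger4 at 3 h, in the mean and in vehicle (-0.15, -0.02 and -0.23), Ptgs1 at 3 h, 6 h and in the mean (-0.15, -0.00 and -0.03) and Ptges2 likewise (-0.06, -0.04 and -0.04).

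On log2(TPM + 1) and log2(TPM + 0.1) it changed for Ptger4 at 3 h (-0.19 and -0.28), 6 h (-0.06 and -0.08), in the mean (-0.09 and -0.13) and in vehicle (-0.26 and -0.38), Ptgs1 at 3 h (-0.39 and -0.40), 6 h (-0.22 and -0.23), 12 h (-0.03 and -0.03), 24 h (-0.11 and -0.11) and in the mean (-0.19 and -0.19), Ptges2 at 3 h (-0.13 and -0.13), 6 h (-0.22 and -0.23), 12 h (-0.07 and -0.08) and in the mean (-0.13 and -0.14), Ptges at 6 h (-0.22 and -0.54), Ptger3 at 12 h (-0.03 and -0.05) and Ptger1 in vehicle (-0.12 and -0.13). Among these the lower values passed for Ptgs1 in the mean (adjusted p = 0.0182 and 0.017), Ptges2 in the mean (0.0226 and 0.0223) and at 6 h (0.0489 and 0.0391) and Ptger4 in vehicle on the second scale (0.0478). With only the libraries compared it changed for Ptger4 at 3 h (-0.05) and in vehicle (-0.06), Ptgs1 at 3 h (-0.04) and 12 h (-0.01), Ptges at 6 h (-0.11) and Ptger3 at 12 h (-0.02).

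Leaving out 1 library gave values on both sides of 0 for Ptger3 at 3 h (-0.54 to 0.14), 12 h (-0.39 to 0.69) and 24 h (-0.66 to 0.03), Ptger4 at 3 h (-0.05 to 0.07) and in vehicle (-0.03 to 0.13), Ptgs1 at 3 h (-0.08 to 0.19), 12 h (-0.08 to 0.27) and 24 h (-0.01 to 0.06), Ptges2 at 3 h (-0.01 to 0.23) and 12 h (-0.02 to 0.28), Ptges at 6 h (-0.16 to 0.16), Ptger2 at 12 h (-1.38 to 0.01) and 24 h (-0.16 to 0.16) and Ptger1 at 24 h (-0.32 to 0.17). Ptgs2 kept its sign under every alternative run, and its call in the mean was lost in the 2 TPM fits (0.16, adjusted p = 0.078, and 0.23, adjusted p = 0.0686).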
